A study of Mus musculus with 10 samples.

Results

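Collagens are trimeric matrix proteins whose chains are encoded by separate genes. Members of this family were taken by symbol, as every gene of the count table named Col, a number, a and a number, and 41 of the 17864 genes in the table met this rule. They were divided into 10 fibrillar genes (Col1, 2, 3, 5, 11, 24 and 27), 8 basement membrane genes (Col4, 15 and 18) and 23 other genes. Of 44 such genes in the GENCODE M21 annotation, Col2a1, Col10a1 and Col19a1 were not analysed here. The filter on low counts left 35 collagen genes for testing, 10 fibrillar, 6 basement membrane and 19 other, while Col4a3, Col4a4, Col6a6, Col22a1, Col25a1 and Col26a1 lay below it.

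RNA was sequenced from whole mammary tumors of 4T1 cells, a mouse line of triple-negative mammary carcinoma. In both groups the cells carried Cas9, with a control guide RNA in 5 tumors (sgCon) and a guide RNA against Wwtr1, the gene of the Hippo transducer TAZ, in 5 tumors (sgTaz). Tumors were grown from 100000 cells placed in the mammary gland of female mice aged 6 to 8 weeks. Both BALB/c and SCID hosts were used in the study, and the sources used here state neither which of them carried the sequenced tumors nor whether the cells were a clone. The guides act on the injected cells, while stromal and immune cells come from the unedited host. The comparison asks how the loss of TAZ in tumor cells changes the tumor and the cells around it. Total counts of the sgCon tumors ran from 14753922 to 19595821, and those of the sgTaz tumors from 12185383 to 18395558. Wwtr1 itself ran from 115 to 192 CPM (the count scaled to the TMM-adjusted library size, the unit used throughout) in sgCon tumors and from 86.6 to 139 CPM in sgTaz tumors. Its RNA was still present in every sgTaz tumor and the groups overlapped, with a log2 fold change of -0.59 ± 0.15 (SE, edgeR adjusted p = 0.0960). The 8 keratin and other epithelial genes used as markers of 4T1 cells were all detected, with a summed level between 1947 and 5691 CPM, as were all 10 markers of fibroblasts, with a summed level between 714 and 1305 CPM.

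Fibrillar collagens I, III and V form the banded fibers of the stroma and are made mainly by fibroblasts. Collagen IV forms the network of basement membranes under epithelium and around vessels, and collagens XV and XVIII sit in or next to that network. Collagen VI forms beaded filaments between basement membrane and stroma, collagen VII forms the fibrils that anchor epithelium, and the FACIT collagens decorate the surface of fibers.

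No collagen gene passed an adjusted p below 0.05 in edgeR's quasi-likelihood test with Benjamini-Hochberg adjustment, where 0.00675% of all 14816 genes tested did. The lowest adjusted p of a collagen gene in that test was 0.0824. At an unadjusted p below 0.05, 6 collagen genes were higher in sgTaz tumors and 6 were lower, together 34.3% of the 35, beside 21.8% of all genes tested. DESeq2, the tool named in the methods of the study, gave 7 collagen genes an adjusted p below 0.05 among 36 with such a value, or 19.4%, beside 6.75% of all genes. Of all genes, 3.28% were called higher and 3.47% lower. The collagen genes called were Col6a1, Col6a2, Col6a5 and Col4a5, higher in sgTaz tumors, and Col11a2, Col27a1 and Col6a4, lower. Limma-voom with sample quality weights called 3 collagen genes higher and 5 lower, beside 10.4% of all genes called in either direction, 4.63% higher and 5.8% lower. Over the alternatives run on single genes, the adjusted p lay between 0.000461 and 0.229 for Col6a1, 0.00134 and 0.233 for Col6a2, 0.0205 and 0.260 for Col4a5, 0.0224 and 0.244 for Col11a2, and 0.0413 and 0.284 for Col27a1. For the scarce Col6a4 and Col6a5 it lay between 0.0324 and 0.331 and between 0.0449 and 0.299, and for Col7a1, which is described further on, between 0.0393 and 0.363. The median log2 fold change was -0.05 over the 35 collagen genes and -0.02 over all genes tested. In whole tumors, a larger number of cells of a type and more RNA per cell cannot be told apart.

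By class, 8 of 10 fibrillar genes had negative log2 fold changes, with a median of -0.26. All 6 basement membrane genes tested had positive ones, with a median of 0.27, beside 6961 positive values among the 14816 genes tested. Of the 6, Col15a1 (0.13 ± 0.22, SE) and Col18a1 (0.04 ± 0.16, SE) turned negative in some edgeR fits that left out a tumor. The others are the neighbouring pairs Col4a1 and Col4a2, and Col4a5 and Col4a6. The 19 other genes were divided into 9 with positive and 10 with negative values. The fold changes of these classes are shown side by side in the plot of tested genes by class.

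**Figure D1:**
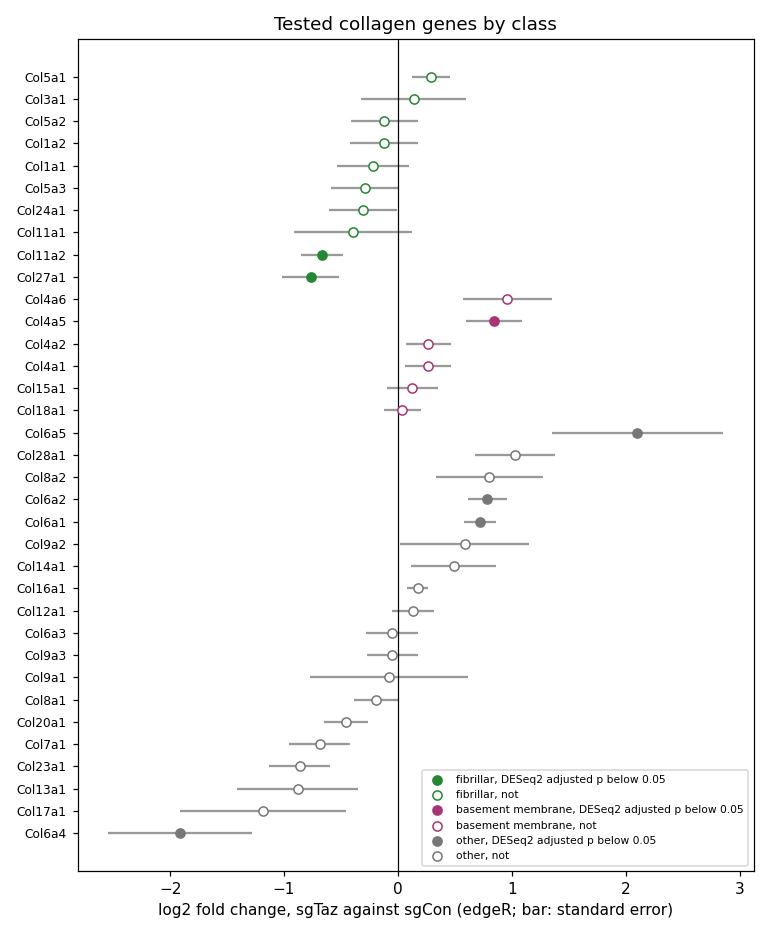
Log2 fold change of sgTaz against sgCon tumors (x axis) for each of the 35 collagen genes tested (y axis), from edgeR, with bars of 1 standard error. Filled points mark an adjusted p below 0.05 in DESeq2, and open points mark the rest. The widest spread is among other collagens, from -1.91 for Col6a4 to 2.10 for Col6a5.

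The amount of collagen RNA varied more between tumors of a group than between groups. Together the 41 genes held from 0.434% to 0.986% of all counts, and their summed level was 7908 ± 2181 CPM (SD, n = 5) in sgCon and 8236 ± 1739 CPM (SD, n = 5) in sgTaz tumors. In the order of replicate numbers, it was 9517, 8604, 4395, 7309 and 9714 CPM in sgCon tumors and 5448, 7742, 8774, 9723 and 9492 CPM in sgTaz tumors. The low tumors were sgCon tumor 3 and sgTaz tumor 1, 1 in each group.

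Fibrillar collagens made up from 33.5% to 56.2% of collagen CPM. Their summed level was 5137, 4732, 1767, 3542 and 5457 CPM in sgCon tumors, and 1825, 3956, 4207, 4783 and 5155 CPM in sgTaz tumors, a range of 3.09-fold from lowest to highest. The means of 4127 ± 1506 and 3985 ± 1296 CPM (SD, n = 5 each) differed by far less than the spread between tumors. Within its group, sgCon tumor 3 was the lowest tumor for 22 of the 35 tested genes, among them all 6 of the basement membrane and 7 of the 10 fibrillar ones. Likewise sgTaz tumor 1 was the lowest of its group for 20 genes, 8 of them fibrillar and 1 of the basement membrane. In these tumors the summed level of fibroblast markers was also lowest in the group, at 759.95 CPM in sgCon tumor 3 and 714 CPM in sgTaz tumor 1. The same holds for sums of myofibroblast and mural cell markers (315 and 326 CPM) and of epithelial markers (2318 and 1947 CPM). It also holds for the cartilage and bone markers in the table (22.3 and 31.3 CPM). Endothelial and adipocyte sums were lowest of the group in sgCon tumor 3 only, and macrophage sums in neither tumor. Sums of B cell, lymph node stroma, skeletal muscle and Schwann cell markers were instead highest of all tumors in sgCon tumor 3. They were 854, 807, 74.4 and 98.6 CPM there, and 0.891, 1.65, 11.5 and 60.1 CPM in sgTaz tumor 1. The part of the number of any of these cells in the collagen values was not tested.

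**Figure D2:**
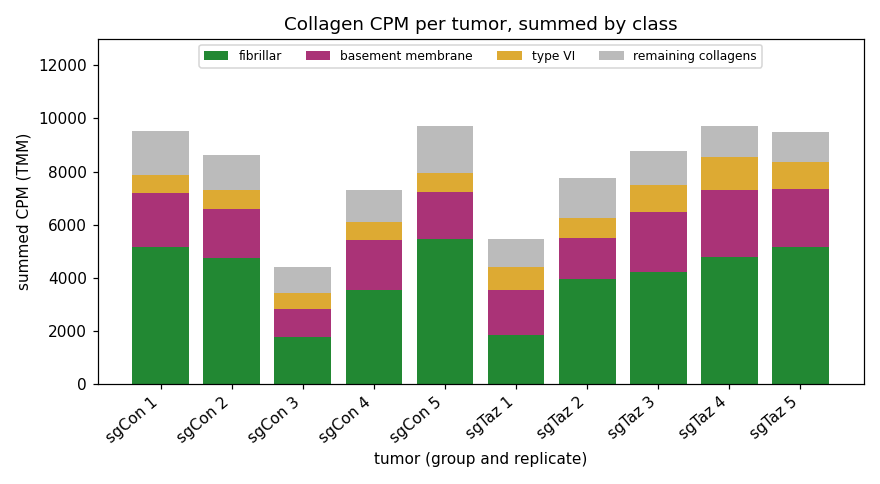
Summed CPM of collagen genes (y axis) in each tumor (x axis), stacked by class, with type VI shown apart from the remaining collagens. Total height ranges from 4395 CPM in sgCon tumor 3 to 9723 CPM in sgTaz tumor 4, and the type VI band is thicker in each sgTaz tumor than in any sgCon tumor.

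The summed level of type VI genes did not overlap between groups, while those of fibrillar, basement membrane and all other collagens did. It was 689.9, 734, 608, 666 and 715 CPM in sgCon tumors and 888, 779, 1038, 1246 and 1039 CPM in sgTaz tumors. The lowest sgTaz tumor was tumor 2, and the means were 682 ± 48.9 and 998 ± 177 CPM (SD, n = 5 each). Col6a1 and Col6a2 carried this difference, with means of 314 and 518 CPM and of 164 and 283 CPM. Col6a3 had means of 199 and 192 CPM, so the sum is no result apart from those 2 genes. Among single genes tested, 4.57% had no overlap between groups. As a share of all collagen CPM, type VI ranged from 7.25% to 13.8% in sgCon tumors and from 10.1% to 16.3% in sgTaz tumors, with overlap.

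The signs of cell type markers are given beside type VI, where 6961 of all 14816 genes tested had positive log2 fold changes. All 8 macrophage markers had positive log2 fold changes, and their sum was 2373, 3605, 3168, 4159 and 1831 CPM in sgCon tumors and 3812, 3273, 4062, 4277 and 4248 CPM in sgTaz tumors. Of the 10 fibroblast markers, 8 had positive values, as did all 6 adipocyte markers tested, while all 8 epithelial markers had negative ones. Fibroblast sums overlapped (medians 1037 CPM in sgCon and 1048 CPM in sgTaz tumors), as did macrophage, adipocyte and epithelial sums. Of other lists, myofibroblast and mural cell markers had 4 positive and 4 negative values and endothelial ones 5 and 3. All 8 B cell markers and all 5 tested markers of lymph node stroma and high endothelium had negative values. The sgTaz tumor with the least type VI, tumor 2, had the lowest macrophage sum, the lowest adipocyte sum (39.7 CPM) and the highest epithelial sum (4491 CPM) of its group. The sgCon tumor with the least type VI, tumor 3, had the lowest adipocyte sum (54.0 CPM) but also the lowest epithelial sum (2318 CPM) of its group. Within that group the lowest macrophage sum was in tumor 5, which had 715 CPM of type VI. The part of these cells in the type VI values was not tested.

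Col6a1 and Col6a2 encode the short chains of collagen VI, which assemble with the long chain encoded by Col6a3. Col6a1 was at 262, 354, 329, 337 and 290.1 CPM in sgCon tumors and at 489, 369, 548, 654 and 533 CPM in sgTaz tumors. All sgTaz tumors were above all sgCon tumors, with sgTaz tumor 2 nearest to them, and Col6a1 was the sole collagen gene tested whose groups did not overlap, where 2.44% of all genes did so toward higher and 2.13% toward lower values in sgTaz tumors, 4.57% in all. The means were 314 ± 37.5 and 518 ± 103 CPM (SD, n = 5 each), a log2 fold change of 0.72 ± 0.14 (SE, edgeR adjusted p = 0.0824, DESeq2 adjusted p = 0.000461). An exact two-sided permutation test gave p = 0.00794, the smallest that 5 tumors against 5 allow. That value follows from the lack of overlap and adds nothing to it.

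Col6a2 was at 151, 177, 143, 182 and 167 CPM in sgCon tumors and at 277, 175, 293, 384 and 286 CPM in sgTaz tumors. Except for sgTaz tumor 2, which lay within the range of sgCon tumors, all sgTaz tumors were above them. The means were 164 ± 16.7 and 283 ± 74.2 CPM (SD, n = 5 each), a log2 fold change of 0.79 ± 0.17 (SE, edgeR adjusted p = 0.0887, DESeq2 adjusted p = 0.00134), and an exact two-sided permutation test gave p = 0.0238. Without sgTaz tumor 2, both genes passed the edgeR test, with log2 fold changes of 0.82 for Col6a1 and 0.92 for Col6a2. Tumor 2 was the lowest sgTaz tumor for both genes, so leaving it out raises the difference in any case. No other edgeR fit that left out a single tumor called either gene. DESeq2 called both genes with each of the 10 tumors left out in turn.

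Col6a3, the partner chain, named after its values were seen, gave other values. It was at 274, 197, 125, 146 and 251 CPM in sgCon tumors and at 121, 234, 193, 203 and 208 CPM in sgTaz tumors. The lowest tumor of each group was again sgCon tumor 3 and sgTaz tumor 1, and the groups overlapped over most of their range. Its log2 fold change was -0.05 ± 0.23 (SE, edgeR adjusted p = 0.921). Per kb of exon, the ratio of Col6a2 to Col6a1 lay between 0.229 and 0.309 in the 10 tumors. The merged exons are 8326 bases long for Col6a2 and 4380 for Col6a1, so the size of this ratio depends on the lengths used. The ratio of Col6a1 to Col6a3 instead ranged from 2.61 to 7.22 in sgCon tumors and from 4.30 to 11.1 in sgTaz tumors, highest in sgTaz tumor 1. These ratios were chosen after the values had been seen and were not tested.

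**Figure D3:**
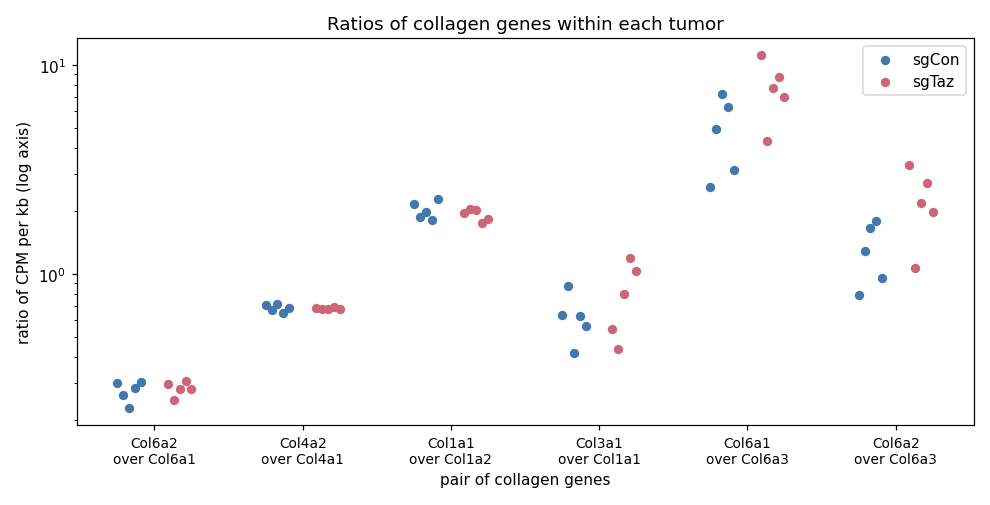
Ratio of CPM per kb of exon between 2 collagen genes within each tumor (y axis, log scale) for 6 pairs (x axis), with a point per tumor, sgCon in blue and sgTaz in red. The ratios of Col6a2 to Col6a1, Col4a2 to Col4a1 and Col1a1 to Col1a2 vary little. The ratio to Col6a3 runs from 2.61 to 11.1 for Col6a1 and from 0.790 to 3.30 for Col6a2.

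Col6a1 and Col6a2 are tandem neighbours on chromosome 10 (mm10, minus strand), at 76708792 to 76726168 and at 76595762 to 76623630, with 85161 bases between them. Col6a3 is on chromosome 1 (minus strand), from 90765923 to 90843971. The stretches upstream of the starts of these chains are given for comparison, since DESeq2 and limma-voom called both short chains higher and did not call the long chain. They come from the RefSeq windows of GRCm38.p6, run 5′ to 3′ on the strand of the gene and end where the first exon annotated in RefSeq or GENCODE begins. They lie at chr10:76726169-76726294 for Col6a1 (126 bases), chr10:76623631-76623880 for Col6a2 (250 bases) and chr1:90843972-90844221 for Col6a3 (250 bases). Capitals mark the GC box GGGCGG or its reverse complement CCGCCC.
Col6a1: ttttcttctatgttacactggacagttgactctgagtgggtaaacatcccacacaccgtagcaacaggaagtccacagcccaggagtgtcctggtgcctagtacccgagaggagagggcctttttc
Col6a2: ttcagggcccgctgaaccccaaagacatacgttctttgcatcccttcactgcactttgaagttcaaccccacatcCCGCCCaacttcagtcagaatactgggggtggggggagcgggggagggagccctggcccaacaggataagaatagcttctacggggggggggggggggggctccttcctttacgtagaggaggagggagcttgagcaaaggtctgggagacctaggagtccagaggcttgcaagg
Col6a3: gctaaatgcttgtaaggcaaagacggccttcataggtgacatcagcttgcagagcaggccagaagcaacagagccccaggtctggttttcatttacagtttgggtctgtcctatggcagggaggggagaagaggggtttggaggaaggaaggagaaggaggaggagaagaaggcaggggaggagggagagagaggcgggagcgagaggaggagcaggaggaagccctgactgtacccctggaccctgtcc

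A GC box was found in the stretch of Col6a2 and in neither of the others. RefSeq windows of 300 bases around the start, 250 of them upstream, were found for 33 of the 41 genes, 36 windows in all, of which those of Col4a1 and Col4a2 and a pair of Col6a2 overlap. On either strand, GGGCGG was found in 63.9% of these windows and in 35.7% of all 32851 windows of the table. The letters GGAATG, known from sites of the TEAD factors through which TAZ acts, were found in windows of Col3a1, Col4a6, Col6a2, Col18a1 and Col20a1, or 13.9% of the collagen windows beside 14.7% of all. In Col6a2 they lay in the window of a start further downstream and not in the stretch shown. The letters TGANTCA, those of AP-1 sites, were found in the window of Col6a1 alone, outside the stretch shown, and in 7.81% of all windows.

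Col6a4, Col6a5 and Col6a6 encode long chains related to that of Col6a3 and lie next to each other in tandem on chromosome 9, with 27917 and 28810 bases between them. All were scarce, with at most 148 counts in a tumor. Col6a5 was at 0.360, 1.95, 0.749, 0.167 and 0.479 CPM in sgCon tumors and at 0.827, 0.775, 2.41, 4.13 and 8.29 CPM in sgTaz tumors. It was high in sgTaz tumors 3, 4 and 5, and the other tumors of both groups overlapped. This gave a log2 fold change of 2.10 ± 0.75 (SE, edgeR adjusted p = 0.153, DESeq2 adjusted p = 0.0449).

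Col6a4 had the opposite sign. It was at 2.88, 2.70, 9.23, 1.39 and 5.48 CPM in sgCon tumors and at 0.318, 0.7104, 1.23, 0.486 and 2.98 CPM in sgTaz tumors. The highest tumor of each group was sgCon tumor 3 and sgTaz tumor 5, and the groups overlapped. For this gene the log2 fold change was -1.91 ± 0.63 (SE, edgeR adjusted p = 0.134, DESeq2 adjusted p = 0.0324). DESeq2 no longer called Col6a5 in 7 and Col6a4 in 6 of the 10 fits that left out a tumor.

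Sums of some marker lists were high in the tumors in which these scarce genes were high. The 7 adipocyte markers, all in the table and with Plin1 and Lep at 0 in some tumors, summed to 246, 208 and 242 CPM in sgTaz tumors 3, 4 and 5, and to between 39.7 and 121 CPM in all other tumors. Their sums were lowest in sgTaz tumors 1 and 2 (52.6 and 39.7 CPM), which were not the tumors with the least Col6a5. Of the 8 markers of lymph node stroma and high endothelium, 7 were in the table, and Ccl19, Cr2, Glycam1, Chst4 and Madcam1 were at 0 in some tumors. Their sum was highest within each group in sgCon tumor 3 at 807 CPM and in sgTaz tumor 5 at 385 CPM, which also had the most Col6a4 of their own group, and lay between 40.02 and 285 CPM in the other sgCon tumors and between 1.55 and 7.61 CPM in the other sgTaz tumors. The 8 B cell markers, all in the table, with Ms4a1, Blk, Fcmr and Cr2 at 0 in some tumors, ranged from 64.5 to 854 CPM in sgCon tumors and from 0.891 to 189 CPM in sgTaz tumors. The part of these tissues in the values of Col6a4 and Col6a5 was not tested.

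The type I chains, which make up the most abundant fiber of the stroma, were the highest fibrillar genes together with Col3a1, the gene of the collagen III that is found in the same fibers. Per kb of exon, Col1a1 was the highest collagen gene at a mean of 161 CPM, followed by Col4a1 at 123, Col3a1 at 117 and Col6a1 at 95.1 CPM. Col1a1 was at 1464, 1152, 490.3, 949 and 1636 CPM in sgCon tumors and at 469, 1182, 1066, 987 and 1182 CPM in sgTaz tumors. Apart from the low tumor of each group, all were within the range from 949 to 1636 CPM. The groups gave a log2 fold change of -0.22 ± 0.31 (SE, edgeR adjusted p = 0.711).

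Col1a2 was at 1288, 1171, 468, 990.0 and 1358 CPM in sgCon tumors and at 452, 1099, 1002, 1064 and 1229 CPM in sgTaz tumors, with a log2 fold change of -0.12 ± 0.30 (SE, edgeR adjusted p = 0.842). The 2 type I chains kept step, with a ratio of Col1a1 to Col1a2 per kb between 1.75 and 2.28 in all tumors. Their mean CPM over all tumors was 1058 and 1012, and their merged exons are 6563 and 12426 bases long. The size of the ratio thus comes from the exon lengths used and does not count chains. Col3a1 was at 1386, 1515, 308, 895 and 1373 CPM in sgCon tumors and at 383, 769, 1282, 1761 and 1828 CPM in sgTaz tumors, a log2 fold change of 0.14 ± 0.46 (SE, edgeR adjusted p = 0.888). The highest Col3a1 levels of all were in sgTaz tumors 4 and 5, and the ratio of Col3a1 to Col1a1 there, 1.19 and 1.03, was above that of every other tumor (0.420 to 0.879). For all 3 genes the standard errors leave room for changes in either direction.

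The type V chains, which join type I fibers and limit their width, did not differ beyond the spread between tumors either. Log2 fold changes with their standard errors were 0.29 ± 0.17 for Col5a1 (edgeR adjusted p = 0.336), -0.12 ± 0.30 for Col5a2 (edgeR adjusted p = 0.843) and -0.29 ± 0.29 for Col5a3 (edgeR adjusted p = 0.586). Col3a1 and Col5a2 lie tail to tail on chromosome 1 with 24614 bases between them.

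Both fibrillar genes called by DESeq2 were scarce ones, better known from cartilage. Col11a2, which encodes a chain of collagen XI, was at 10.7, 9.96, 13.7, 13.2 and 13.2 CPM in sgCon tumors and at 5.16, 10.01, 8.84, 6.88 and 7.35 CPM in sgTaz tumors. A single sgTaz tumor, tumor 2, reached the lowest sgCon tumor. With these values the log2 fold change was -0.67 ± 0.18 (SE, edgeR adjusted p = 0.101, DESeq2 adjusted p = 0.0224), and an exact two-sided permutation test gave p = 0.0159.

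Col27a1, a fibrillar gene of cartilage and epithelium, was at 26.4, 17.2, 19.1, 15.4 and 33.2 CPM in sgCon tumors and at 8.34, 18.4, 11.9, 11.2 and 15.5 CPM in sgTaz tumors. The highest values were in sgCon tumors 5 and 1, and the groups overlapped between 15.4 and 18.4 CPM. Its log2 fold change was -0.77 ± 0.25 (SE, edgeR adjusted p = 0.134, DESeq2 adjusted p = 0.0478). Unlike the type I chains, neither gene was lowest of its group in sgCon tumor 3. Like them, both were lowest of the sgTaz group in tumor 1. Of 10 DESeq2 fits that each left out a tumor, 5 called Col11a2 and 4 called Col27a1. Both calls were lost without sgCon tumor 3 or 5 and without sgTaz tumor 1, 3 or 4. Of the 8 markers of cartilage and bone, Acan, Matn3, Bglap, Sp7 and Chad were not analysed here, and the other 3 summed to between 22.3 and 98.5 CPM in sgCon and between 31.3 and 68.6 CPM in sgTaz tumors. The part of such tissue was not tested.

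**Figure D4:**
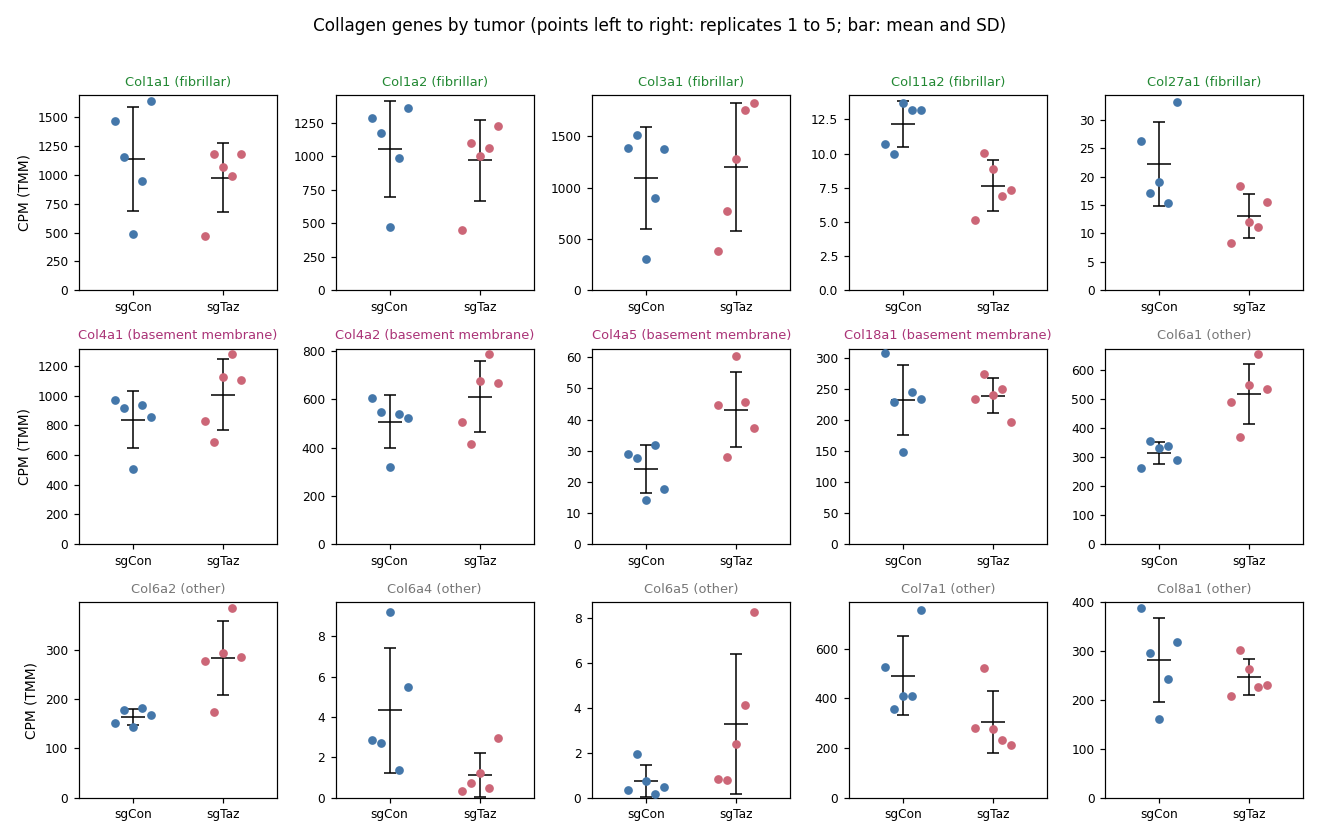
CPM (y axis, from 0) of 15 collagen genes in sgCon and sgTaz tumors (x axis), with a point per tumor in the order of replicate numbers and the mean and SD as bars. Col6a1 shows no overlap between groups, and Col1a1, Col1a2 and Col3a1 each have a low tumor in both groups.

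In the basement membrane, Col4a1 and Col4a2 encode the chains of the common form of collagen IV and are read from a shared promoter in opposite directions. They lie head to head on chromosome 8, overlap by 22 bases at their starts, and share these exon bases on opposite strands. Col4a1 was at 969, 916, 503, 939 and 858 CPM in sgCon tumors and at 829, 687, 1124, 1278 and 1106 CPM in sgTaz tumors. Tumors 3, 4 and 5 of the sgTaz group were above every sgCon tumor, and tumors 1 and 2 were not. Col4a2 was at 607, 548, 319, 540.3 and 521 CPM in sgCon tumors and at 506, 416, 674, 787 and 667 CPM in sgTaz tumors, with the same tumors high.

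Log2 fold changes were 0.26 ± 0.20 (SE, edgeR adjusted p = 0.464) for Col4a1 and 0.27 ± 0.20 (SE, edgeR adjusted p = 0.441) for Col4a2. Per kb, the ratio of Col4a2 to Col4a1 was between 0.648 and 0.715, the narrowest of the 11 pairs of chains that were compared. The 8 endothelial markers summed to 464, 539, 438, 622 and 471 CPM in sgCon tumors and to 434, 365, 587, 698 and 653 CPM in sgTaz tumors. In the sgTaz group they were lower in tumors 1 and 2 than in tumors 3, 4 and 5, as were Col4a1 and Col4a2. In the sgCon group tumor 3 was lowest for the markers and both genes, but tumor 1, highest for both genes, was next to lowest for the markers. The part of vessels in their values was not tested.

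Col4a5 and Col4a6, which encode chains of basement membranes of some epithelia and of smooth muscle, lie head to head on the X chromosome with 1308 bases between them. Col4a5 was at 28.9, 27.6, 14.04, 31.9 and 17.7 CPM in sgCon tumors and at 44.6, 28.03, 60.5, 45.6 and 37.3 CPM in sgTaz tumors. Tumor 2 was the sgTaz tumor within the sgCon range, and the others were above it. The means were 24.04 ± 7.74 and 43.2 ± 11.96 CPM (SD, n = 5 each), a log2 fold change of 0.84 ± 0.25 (SE, edgeR adjusted p = 0.113, DESeq2 adjusted p = 0.0205). DESeq2 lost this call without sgCon tumor 5 or without sgTaz tumor 1, 3 or 4. Its partner Col4a6, named after its values were seen, was below 3 CPM in every tumor and had a log2 fold change of 0.96 ± 0.39 (SE, edgeR adjusted p = 0.192).

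Col4a3 and Col4a4, the pair of the basement membrane of kidney glomeruli, are separated by 71 bases on chromosome 1 and had at most 2 and 6 counts in a tumor. Col18a1, from whose protein endostatin is cleaved, was at 307, 228, 148, 246 and 234 CPM in sgCon tumors and at 234, 274, 240.4, 249.6 and 196 CPM in sgTaz tumors. All sgTaz tumors lay within the sgCon range, with a log2 fold change of 0.04 ± 0.16 (SE, edgeR adjusted p = 0.913). Col15a1 had a log2 fold change of 0.13 ± 0.22 (SE, edgeR adjusted p = 0.774).

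Outside these classes and type VI, Col7a1 was the most abundant collagen gene per kb. This gene of the anchoring fibril was at 525, 356, 411, 409 and 757 CPM in sgCon tumors and at 282, 522, 278, 234 and 211 CPM in sgTaz tumors. Tumor 2 was the exception in the sgTaz group, and the other sgTaz tumors were below every sgCon tumor. The means were 491 ± 161 and 305 ± 125 CPM (SD, n = 5 each), a log2 fold change of -0.69 ± 0.27 (SE, edgeR adjusted p = 0.176, DESeq2 adjusted p = 0.0943). Limma-voom with sample quality weights gave it an adjusted p of 0.0393. All 8 epithelial markers had negative log2 fold changes, and their sum was 5691, 3211, 2318, 3612 and 3652 CPM in sgCon tumors and 1947, 4491, 2527, 2436 and 2618 CPM in sgTaz tumors, highest in sgTaz tumor 2 within its group, as was Col7a1. In the sgCon group the sum was highest in tumor 1 and Col7a1 in tumor 5. Their part in the values of Col7a1 was not tested.

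Col8a1, which encodes a network-forming chain of vessel walls, was at 389, 297, 161, 244 and 319 CPM in sgCon tumors and at 209, 303, 263, 227 and 232 CPM in sgTaz tumors, with a log2 fold change of -0.19 ± 0.20 (SE, edgeR adjusted p = 0.603). Of 7 FACIT genes tested, 4 had positive and 3 negative log2 fold changes, and DESeq2 called none. Col12a1, the most abundant of them, was between 227 and 530.3 CPM in all tumors. All 3 transmembrane collagen genes tested, Col13a1, Col17a1 and Col23a1, had negative log2 fold changes, from -1.18 to -0.86, at levels below 7 CPM, and none passed edgeR or DESeq2, while limma-voom called 2 of them.

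Named after its values were seen, Col28a1 was at 3.24, 3.35, 1.93, 2.72 and 2.26 CPM in sgCon tumors and at 2.48, 3.42, 4.77, 7.36 and 9.75 CPM in sgTaz tumors. It is known from the sheaths of peripheral nerve, and its log2 fold change was 1.03 ± 0.35 (SE, edgeR adjusted p = 0.142, DESeq2 adjusted p = 0.0530). High values were in sgTaz tumors 3, 4 and 5, the tumors with high Col6a5 and adipocyte markers. All 7 Schwann cell markers were in the table, and their sum ranged from 68.3 to 98.6 CPM in sgCon tumors and from 60.1 to 81.4 CPM in sgTaz tumors. The FACIT gene Col14a1, also named after its values were seen, had 45.8, 55.4 and 64.5 CPM in those tumors and between 15.9 and 42.4 CPM in all others.

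**Figure D5:**
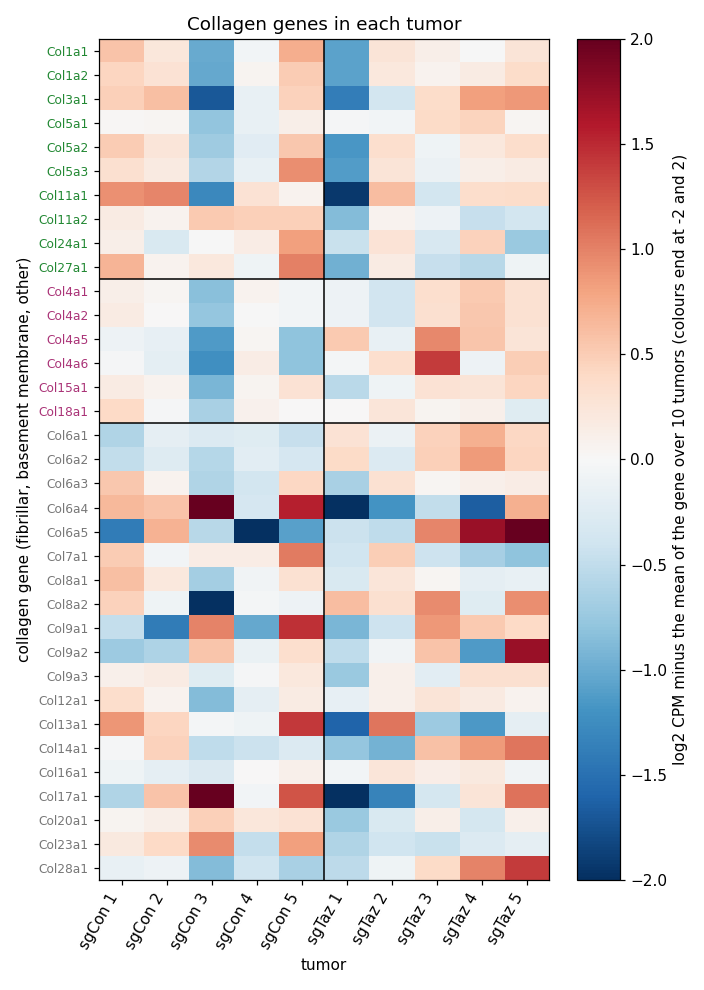
Log2 CPM of the 35 tested collagen genes (rows, by class) in the 10 tumors (columns), minus the mean of each gene, in colour from blue (low) to red (high). The columns of sgCon tumor 3 and sgTaz tumor 1 are blue through most fibrillar genes, and Col6a1 and Col6a2 are red in sgTaz tumors other than tumor 2.

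Genes that fold, process, crosslink, cleave and bind collagen were taken from lists written by hand, of which Tll2 and Gp6 were not analysed here. In edgeR none of them passed the adjusted threshold, and at an unadjusted p below 0.05, where 9.86% of all genes were higher and 11.9% lower in sgTaz tumors, the share of a list that was higher differed between lists. Of 20 genes of collagen folding and hydroxylation, 5 were then higher and 0 lower. DESeq2 called 1 of them, or 5.0%, beside 6.75% of all genes. It was Serpinh1, the collagen chaperone HSP47, at 306 ± 42.0 CPM in sgCon and 403 ± 52.6 CPM in sgTaz tumors (SD, n = 5 each). Its log2 fold change was 0.40 ± 0.12 (SE, edgeR adjusted p = 0.114, DESeq2 adjusted p = 0.0300). Plod3, a lysyl hydroxylase, did not overlap between groups, as was so for 4.57% of all genes tested, and had a log2 fold change of 0.17 ± 0.07 (SE, edgeR adjusted p = 0.218).

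Of 10 tested genes of procollagen processing and fibril assembly, 1 was higher and 1 lower at the unadjusted threshold, and DESeq2 called none. The lower one, named after its values were seen, was Fmod, with a log2 fold change of -1.22 ± 0.50 (SE, edgeR adjusted p = 0.195). Of 5 crosslinking genes, 1 was higher, the lysyl oxidase relative Loxl3, at 109 ± 15.8 CPM in sgCon and 149 ± 26.6 CPM in sgTaz tumors (SD, n = 5 each), with no overlap between groups. The log2 fold change was 0.45 ± 0.13 (SE, edgeR adjusted p = 0.105, DESeq2 adjusted p = 0.0205). Of 7 tested genes of collagen cleavage and uptake, 1 was higher and 1 lower. The lower one, named after its values were seen, was Mmp8, with a log2 fold change of -0.92 ± 0.41 (SE, edgeR adjusted p = 0.222). The higher one, the membrane collagenase Mmp14, had a log2 fold change of 0.26 ± 0.09 (SE, edgeR adjusted p = 0.141, DESeq2 adjusted p = 0.0715) and no overlap between groups. Among all genes, 4.57% of those tested had no overlap, and DESeq2 called 6.75%.

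Of 10 tested collagen receptors, 4 were higher and 0 lower at an unadjusted p below 0.05, and the median log2 fold change of the 10 was 0.49. The median was 0.15 for folding and hydroxylation and 0.09 for processing and fibril assembly. It was negative for crosslinking (-0.11, 3 of 5 genes negative) and for cleavage and uptake (-0.29, 5 of 7 negative). DESeq2 called 2 of the 10, or 20%, beside 6.75% of all genes. Ddr2, the receptor tyrosine kinase of fibroblasts for fibrillar collagen, was at 151, 182, 151, 178 and 154 CPM in sgCon tumors and at 291, 211, 250.1, 264 and 209.5 CPM in sgTaz tumors. The groups did not overlap, as was so for 4.57% of all genes tested, and its log2 fold change was 0.59 ± 0.10 (SE, edgeR adjusted p = 0.0824, DESeq2 adjusted p = 0.000332). Antxr1, a receptor that binds collagens I and VI, was at 69.4, 96.0, 85.1, 110.4 and 75.1 CPM in sgCon tumors and at 173, 93.1, 157, 143 and 132 CPM in sgTaz tumors. Tumor 2 was the sgTaz tumor within the sgCon range, and its log2 fold change was 0.68 ± 0.17 (SE, edgeR adjusted p = 0.0960, DESeq2 adjusted p = 0.00918).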

How the data were processed

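The authors sequenced RNA of whole 4T1 tumors, aligned the reads to mm10 by the two-pass mode of STAR with GENCODE annotation, and counted them per gene by featureCounts from Subread. The deposited values are these counts, whole numbers without normalization. Tool versions, the strand setting and the choice of genes in the table are not given in the sources used here. A further 5 columns of the table match no sample label and were not used. Of 17864 identifiers, 17860 were found in GENCODE M21, which gave names, positions and exon lengths (all exons of a gene, merged). Of the 41 collagen genes, 29 share no exon bases with another gene.

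Counts were tested in R 4.3.3 with edgeR 4.0.16 (TMM, filterByExpr, quasi-likelihood test with Benjamini-Hochberg adjustment over 14816 genes), with DESeq2 1.42.0 and limma 3.58.1 as alternatives. The standard error is the log2 fold change divided by the root of the F statistic. Exact permutation tests used log2 CPM with a prior count of 2. A count of 3, used as the floor, is between 1.53e-05% and 2.46e-05% of a tumor's total and covers counting error only. The labels number the tumors and name no animals, so p-values measure the spread between these tumors. Pairs of tumors within a group differed by more than sampling noise.

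The members and gene lists were chosen with earlier results of these data known. Values are given per tumor for collagen genes called by edgeR or DESeq2, for those without overlap between groups and for the 3 most abundant per kb of each class, and for other genes where this is said. Of each collagen pathway list, at most 4 genes that DESeq2 or edgeR called or whose groups did not overlap are named, and others where this is said. Skeletal muscle markers, 8 in the table and 2 tested, summed to between 17.3 and 74.4 CPM in sgCon and between 11.1 and 38.6 CPM in sgTaz tumors, with Acta1, Myh4, Myl1 and Pvalb at 0 in some tumors. Sums of the 8 markers of myofibroblasts and mural cells lay between 315 and 574 CPM in sgCon and between 326 and 604 CPM in sgTaz tumors, and those of the 8 macrophage markers between 1831 and 4159 CPM in sgCon and between 3273 and 4277 CPM in sgTaz tumors. The scripts were tested on simulated data.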

Additional observations from a re-analysis of the deposited data

Results flagged for a closer look

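Among 36 sets of 5 tumors looked at, 6 held a single tumor set well apart from the remaining ones. Chance alone sets a tumor apart in about 1 of 20 independent sets. These sets are not independent, since the class sums contain the single genes and the chains of a pair vary together. The number of sets therefore cannot be compared with that share. Of the 6, 3 concern sgTaz tumor 1. Its log2 CPM of Col1a1 was 8.87 (others 9.95 to 10.21) and of Col1a2 8.82 (others 9.97 to 10.26), and its log2 summed CPM of fibrillar collagens was 10.83 (others 11.95 to 12.33). The other 3 concern sgCon tumor 3, whose log2 CPM was 8.97 for Col4a1 (others 9.75 to 9.92) and 8.32 for Col4a2 (others 9.02 to 9.24), and whose log2 summed CPM of basement membrane collagens was 10.04 (others 10.80 to 11.005).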

How the results depend on the processing

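Against 0 collagen genes higher and 0 lower in edgeR, DESeq2 gave 4 and 3 and limma-voom 3 and 5. All other alternatives with all tumors gave 0 in each direction, among them RLE and upper-quartile normalization, no filter, at least 10 counts in every tumor, the bias-adjusted deviance, and a correction for GC content and length. The replicate number as a block, alone and with that correction, also called 0 collagen genes. Correlations of the deviations of same-numbered tumors from their group means ran from -0.24 to 0.22, so the numbers were not read as a pairing and the block is no sign of a weaker effect. With each tumor left out, edgeR called 0 to 2 higher and 0 lower, and the 2, Col6a1 and Col6a2, came without sgTaz tumor 2. Pathway genes higher in sgTaz tumors numbered 0 in edgeR, 4 in DESeq2, 6 in limma-voom and 0 to 2 with a tumor left out, 2 without sgTaz tumor 2 and 1 without sgTaz tumor 5.

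Chosen after seeing the data, DESeq2 with each tumor left out called 2 to 5 collagen genes higher and 0 to 4 lower. It called 2 higher without sgCon tumor 5, sgTaz tumor 3 or sgTaz tumor 4, and 0 lower without sgCon tumor 3, sgCon tumor 5 or sgTaz tumor 1, 3 or 4. Without both sgCon tumor 3 and sgTaz tumor 1, it called 3 higher and 0 lower. The cause of these differences was not tested.

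Of 313 fold changes of the 15 named collagen genes under the alternatives, 305 kept their sign. Those that did not were Col18a1 with limma-voom (-0.0036), without sgCon tumor 3 (-0.080), without sgTaz tumor 2 (-0.016) and without sgCon tumor 3 and sgTaz tumor 1 (-0.06), Col1a2 without sgTaz tumor 1 (0.059), and Col3a1 without sgCon tumor 3 (-0.094), sgTaz tumor 4 (-0.04) or sgTaz tumor 5 (-0.06). With a tumor left out, these genes ran from -0.080 to 0.16, from -0.30 to 0.059 and from -0.094 to 0.37. The log2 ratio of summed CPM, -0.05 for fibrillar, 0.24 for basement membrane and 0.11 for other collagens, moved by less than the spread between tumors under each alternative, and with a tumor left out lay between -0.24 and 0.13, 0.10 and 0.32, and 0.03 and 0.18. Depth limits Col4a3, Col4a4, Col22a1, Col25a1 and Col26a1, with at most 7 counts in a tumor.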
